A study of Homo sapiens with 10 samples.

Results

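The genes around MYC on the long arm of chromosome 8 were followed through the m6A peak lists of 5 human colon cancer cell lines. The 4 genes are MYC, PVT1, CCAT1 and POU5F1B. A peak counted as a member when its summit fell in 1 of 4 spans on hg19 chromosome 8. The spans run from 128.219 to 128.232 Mb for CCAT1, from 128.427 to 128.43 Mb for POU5F1B, from 128.748 to 128.754 Mb for MYC and from 128.806 to 129.114 Mb for PVT1. This gave 38 of the 38106 deposited peaks, in 16 of the 22315 regions that overlapping peaks of any lists form. The peaks were chosen by summit position, and the genes with earlier results of these lists known, so the presence of peaks in a span is no result and all values are given as a description.

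In MeRIP-seq, fragmented RNA is pulled down with an antibody against N6-methyladenosine (m6A) and sequenced beside unenriched input RNA. COLO320DM and COLO205 are labelled colon, and HCT116, HT29 and HCT15 colorectum. All 5 lines were untreated cells grown in DMEM with serum, with 1 immunoprecipitation (IP) and 1 input library of total RNA per line. There were no replicates, so differences compare these libraries, no test was possible and no p-value was computed. Whether the lines express colon epithelial markers was not analysed here, as no gene annotation of hg19 was used.

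MYC encodes a short-lived transcription factor that drives growth and is raised in most colorectal cancers, where it is a target of Wnt signalling. Its mRNA is known to carry m6A near the end of the coding region, where IGF2BP proteins read the mark and stabilise the transcript. PVT1 is a long non-coding RNA gene that follows MYC on the chromosome, is often gained with it and hosts several microRNAs. CCAT1 is a long non-coding RNA of colon tumours transcribed from an enhancer region upstream of MYC, and POU5F1B is a retrogene copy of the stem cell factor gene POU5F1. In RefSeq's table on GRCh38.p14 the order along the chromosome is CCAT1, POU5F1B, MYC and PVT1, with CASC21, CASC8 and CCAT2 between CCAT1 and POU5F1B and with CASC11 between POU5F1B and MYC. COLO320DM is known for many extra copies of MYC on small circular chromosomes called double minutes, the DM of its name.

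The values of a peak are the authors' own fold enrichment and −log10 q. From the fold and −log10 p together, the number of IP reads over a summit and the local input could be worked out. Local input is the background that the peak caller used, in input fragments. It is the largest of the fragments over the summit, the mean over 1 kb, the mean over 10 kb and the genome mean. Depth, worked out from the lists with an assumed genome size, is given in M (1000000 reads). The IP libraries had 1.47 M in COLO320DM, 1.38 M in HCT116, 2.13 M in HT29 and 2.99 M in COLO205, and the input libraries had 2.28, 2.24, 3.10 and 5.41 M in the same order. Values per M reads use these depths. Intervals of reads and fragments are exact Poisson 95% intervals and cover counting error only.

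HT29 had the most peaks in the spans, with 14 or 0.157% of its list. COLO320DM had 8 (0.0906%), HCT116 had 8 (0.0849%) and COLO205 had 8 (0.0800%). The order depended on list length and threshold: among the 917 strongest peaks of each list, COLO320DM had 5 in the spans and HCT116, HT29 and COLO205 had 2 each. HCT15 had 0 peaks in the spans and 0 in the whole window from 126 to 130.5 Mb. Its list held only 917 peaks, and the whole-list shares of the other lists would place 0.734 to 1.44 peaks of such a list in the spans. The 917 strongest peaks of those lists held more, 2 to 5. With numbers this small, an absence of m6A in HCT15 cannot be read from its list.

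The genes divided the lists differently. PVT1 held 7 peaks in COLO320DM, 4 in HCT116, 11 in HT29 and 5 in COLO205. MYC held 2 peaks in HCT116, 1 in HT29 and 1 in COLO205, and CCAT1 held 2 in each of these lists. COLO320DM had no peak in MYC or CCAT1 and the only POU5F1B peak of the series. A −log10 q of at least 5 was reached by 7 of 8 COLO320DM peaks (54.3% of its whole list), 4 of 8 in HCT116 (53.7%), 9 of 14 in HT29 (59.4%) and 5 of 8 in COLO205 (59.6%).

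**Figure D1:**
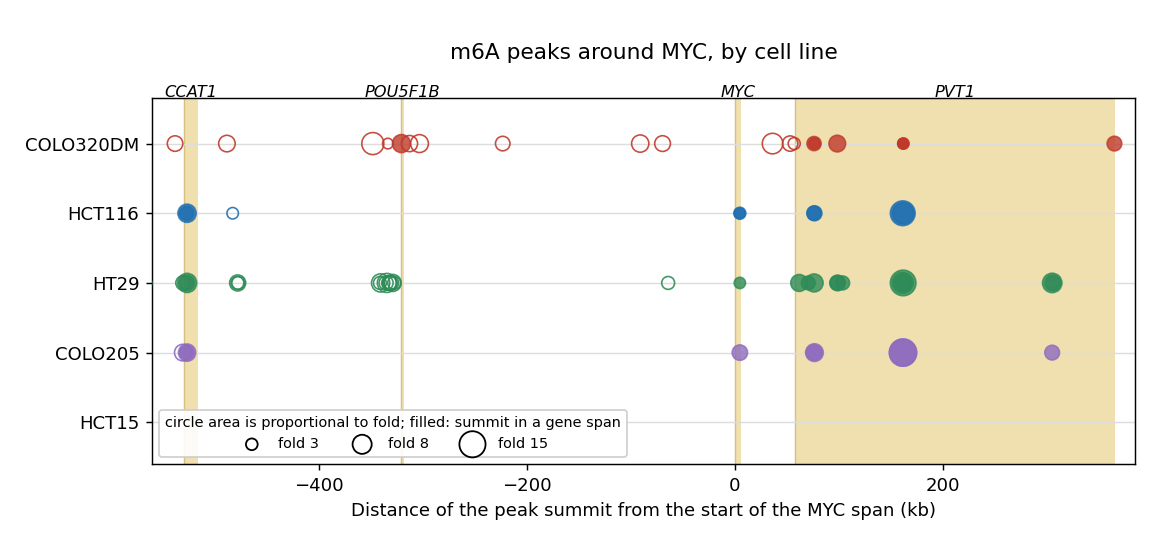
Summits of m6A peaks by distance from the start of the MYC span (kb), 1 row per cell line, with the gene spans shaded and circle area proportional to the authors' fold. COLO320DM has no filled circle over MYC or CCAT1, and the 4 longer lists all have peaks in PVT1.

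MYC carried peaks at 1 place in HCT116, HT29 and COLO205, close to the end of the span, which is the 3′ side of this forward-strand gene. The HT29 peak ran from 128753096 to 128753303, with a fold of 2.81, 48 IP reads (35.4 to 63.6) and a local input of 24 fragments over the summit (15.4 to 35.7). In HCT116 the peak from 128753095 to 128753301 had a fold of 3.17, 51 IP reads (38.0 to 67.1) and 25 input fragments (16.2 to 36.9). The COLO205 peak was longer, from 128752845 to 128753332, with a fold of 5.21, 33 IP reads (22.7 to 46.3) and 10 input fragments (4.80 to 18.4). The summits of these 3 peaks lay within 2 nt of each other, 854 to 856 nt before the end of the span, in 3 separately called lists.

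HCT116 had another MYC peak upstream of it, from 128752837 to 128752967, with a fold of 2.52, 48 IP reads and 30 input fragments. The long COLO205 peak covered both HCT116 peaks. Which exon or untranslated part these positions belong to was not analysed here, for want of an hg19 annotation.

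The MYC peaks were low in fold and high in input. The folds were above those of only 1.43% and 9.01% of the HCT116 list, 1.32% of the HT29 list and 38.4% of the COLO205 list. Local input under them was above that of 98.6% and 98.1% of the HCT116 list, 98.99% of the HT29 list and 92.0% of the COLO205 list. Per M input reads it was 13.4 and 11.2 fragments in HCT116, 7.74 in HT29 and 1.85 in COLO205. The line with the least input at MYC thus had the highest fold there.

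COLO320DM had no MYC peak. Its nearest peaks were 69.2 kb before the span (fold 5.43, 22 IP reads) and 30.6 kb after it (fold 9.21, 13 IP reads). A peak list shows input only under peaks, so neither the RNA level nor the methylation of MYC in COLO320DM can be read from these data. A missing partner in COLO320DM was common. Of the 2559 regions that HCT116, HT29 and COLO205 all held, COLO320DM held 59.9%, and of the 6 such regions in the spans it held 3. Those 3 were all in PVT1, and the other 3 were the MYC region and both CCAT1 regions.

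PVT1 held the highest folds of the 4 genes, 103785 to 104160 nt into its span, where all 4 longer lists had a pair of neighbouring peaks. The first peak of the pair ran from 128909700 to 128909989 in COLO320DM, from 128909717 to 128909977 in HCT116, from 128909714 to 128909987 in HT29 and from 128909725 to 128909984 in COLO205. Its fold was 2.17 in COLO320DM, 13.4 in HCT116, 9.26 in HT29 and 16.2 in COLO205. IP reads over its summit were 143 in COLO320DM (121 to 168), 29 in HCT116 (19.4 to 41.6), 40 in HT29 (28.6 to 54.5) and 33 in COLO205 (22.7 to 46.3). COLO320DM thus had the most reads and the lowest fold.

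Local input under this peak was 101 fragments in COLO320DM (82.3 to 123), 2 in HCT116 (0.242 to 7.22), 5 in HT29 (1.62 to 11.7) and 2 in COLO205 (0.242 to 7.22). No peak of COLO320DM on chromosomes 1 to 22, X and Y had more IP reads or more local input than this one, among 8638.

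The second peak of the pair had its summit 252 nt downstream of the first in COLO205, 284 nt in HT29, 348 nt in COLO320DM and 363 nt in HCT116. The second summits of the 4 lists lay within 17 nt of each other, while those of the first spread over 106 nt. The fold of the second peak was 2.66 in COLO320DM, 9.83 in HCT116, 14.4 in HT29 and 16.3 in COLO205. It had 136 IP reads in COLO320DM, 27 in HCT116, 43 in HT29 and 24 in COLO205. The input was 78 fragments in COLO320DM, 3 in HCT116, 3 in HT29 and 0.975 in COLO205, the last as a mean over a wider window. COLO320DM and HT29 had another peak just after it, with folds of 2.75 and 6.10.

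In the HCT116, HT29 and COLO205 lists this pair stood near the top of the list. In fold, the first peak exceeded 98.5% of the HCT116 list, 88.8% of the HT29 list and 98.5% of the COLO205 list, and the second 93.6%, 98.4% and 98.6% in the same order. In COLO320DM the same peaks exceeded only 0.634% and 2.08% of the list in fold, but 99.8% in IP reads.

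A PVT1 pair nearer to the start of the span was held by COLO320DM, HCT116 and COLO205, and its first peak also by HT29. The first peak lay 18441 to 18547 nt into the span, from 128824383 to 128824605 over all lists. Its fold was 4.41 in COLO320DM, 4.33 in HCT116, 7.12 in HT29 and 5.17 in COLO205. The fold adds 1 to reads and to background, and without it the values were 4.55, 9.74, 16.0 and 31.0 in the same order. There were 106 IP reads in COLO320DM, against 6 in HCT116, 11 in HT29 and 5 in COLO205. Local input was 36 fragments in COLO320DM and 1 in HCT116 and HT29, and in COLO205 it came from 39 fragments spread over 10 kb.

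At the second of this pair, from 128824786 to 128825011, COLO320DM had a fold of 2.80 with 116 reads and 63 input fragments. HCT116 had a fold of 4.93 with 10 reads and 2 input fragments. COLO205 had a fold of 6.89 with 7 reads and again 39 fragments over 10 kb.

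The region from 128846692 to 128847058 was shared by COLO320DM and HT29 only. COLO320DM had a fold of 6.11 there, its highest in PVT1, with 44 IP reads and 1348 input fragments over 10 kb. HT29 had a fold of 4.68 with 5 reads and 55 input fragments over 10 kb. Without the 1 that the fold adds to reads and to background, HT29 was the higher, with 17.7 against 6.91 in COLO320DM. Further downstream, a region from 129053151 to 129053801 was held by HT29, with a fold of 8.28 and 10 reads, and by COLO205, with a fold of 4.76 and 5 reads. The second highest PVT1 fold of COLO320DM was 4.71, at 129113304 to 129113376 near the end of the span, on 4 reads.

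Of the 12 PVT1 regions, 3 were held by all 4 longer lists, 1 by 3 lists, 2 by 2 lists and 6 by 1 list. HT29 alone held 5 of the last 6. Of all 22315 regions, 14349 were held by 1 longer list, 3271 of these by HT29 alone. Over the 4 spans, 3 of 16 regions were in all 4 longer lists, against 6.87% of all regions.

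**Figure D2:**
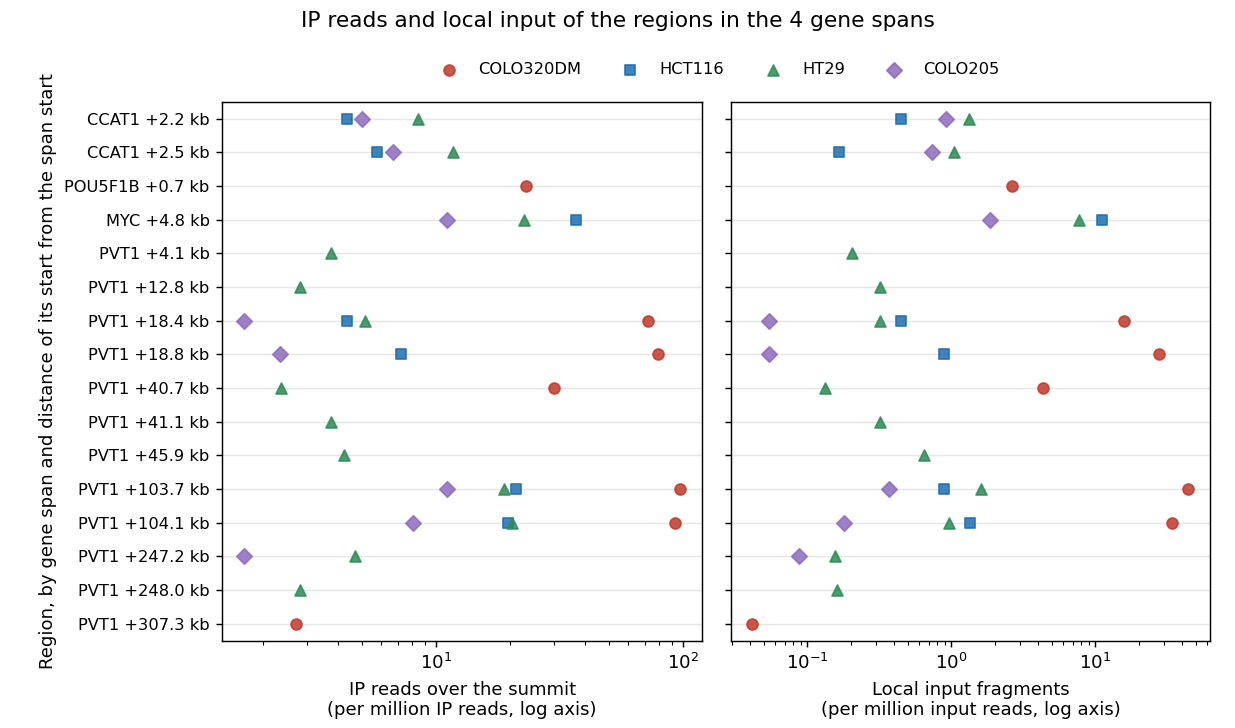
IP reads over the summit per M IP reads (left) and local input fragments per M input reads (right), both on log axes, for the 16 regions of the 4 spans; each marker is the strongest peak of 1 line in the region, and a line with no marker had no peak. At the PVT1 regions it shares with another line, COLO320DM lies to the right of every other line in both panels.

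CCAT1 held 2 neighbouring regions in HCT116, HT29 and COLO205, between 128221249 and 128221769. This is the low-coordinate side of the span, the 3′ side of a gene on the reverse strand. The stronger region had a fold of 7.31 in HCT116 (8 IP reads, 3.45 to 15.8), 8.10 in HT29 (25 reads, 16.2 to 36.9) and 6.54 in COLO205 (20 reads, 12.2 to 30.9). The weaker one had a fold of 4.33 in HCT116 (6 reads), 4.96 in HT29 (18 reads) and 4.25 in COLO205 (15 reads). Summits of the 3 lists spread over 57 nt in the stronger region and 28 nt in the weaker one.

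The folds of CCAT1 ranked in the same order in both regions, HT29 first and COLO205 last, but over a narrow range on few reads. That order rests on the 1 that the fold adds to reads and to background. Without it, reads over background at the stronger region were 34.6 in HCT116, 11.3 in HT29 and 9.06 in COLO205. At the weaker region they were 9.74, 6.37 and 5.43, so HCT116 was first in both. IP reads per M at the stronger region were 5.80 in HCT116, 11.8 in HT29 and 6.69 in COLO205. Local input there was 0.375 fragments in HCT116, 3.23 in HT29 and 4 in COLO205, and only the COLO205 value was of fragments over the summit itself. COLO320DM had no CCAT1 peak, and its nearest ones were 8.94 kb below the span (fold 5.27, 8 reads) and 27.9 kb above it (fold 5.98, 16 reads).

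Just outside this span, HT29 and COLO205 had overlapping peaks with summits 1489 and 1488 nt below its start, with folds of 4.28 and 6.01. At the PVT1 span the nearest outside was a COLO320DM peak 585 nt before the start, with a fold of 3.15, 26 reads and 1601 input fragments over 10 kb. The nearest inside was the COLO320DM peak at 129113304, whose summit lay 676 nt before the span end.

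POU5F1B had 1 peak, in COLO320DM, from 128427690 to 128427875. It had a fold of 7.17, above 78.9% of the COLO320DM list, a −log10 q of 16.0, 34 IP reads (23.5 to 47.5) and 6 input fragments over the summit (2.20 to 13.1). It had the highest fold of the COLO320DM peaks in the 4 spans. Since POU5F1B is a near copy of POU5F1, reads of POU5F1 and its other copies could be placed here or lost from here, and this was not tested.

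Local input set COLO320DM apart in PVT1, with a median of 36 fragments against 2 in HCT116, 1 in HT29 and 0.4725 in COLO205. Over the 4 spans, COLO320DM peaks had a median local input of 34.4 fragments. This is 23.5 times the median of its peaks on chromosomes 1 to 22, X and Y. The ratio was 1.90 in HCT116, 5.52 in HT29 and 1.49 in COLO205, whose peaks in the spans include those of MYC and CCAT1. Local input was at least 1 fragment under 7 of 8 COLO320DM peaks (61.8% of its whole list, all contigs included), 7 of 8 in HCT116 (58.1%), 10 of 14 in HT29 (39.0%) and 4 of 8 in COLO205 (51.8%).

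COLO320DM was set against each other line over the regions that both lists held, per M input reads. The 3 comparisons share the COLO320DM libraries. Over 4 regions shared with HCT116, all in PVT1, local input was 25.6 to 49.7 times as high in COLO320DM (median 33.2), and the median over all 3523 shared regions was 1.09. Over 4 PVT1 regions shared with HT29 it was 27.5 to 49.0 times as high (median 33.9, against 1.76 over 2302 regions). Over 4 shared with COLO205 it was 120.0 to 512 times as high (median 241, against 4.75 over 2866 regions). At 3 of these 4 the COLO205 input was a mean over a wider window while that of COLO320DM lay over the summit itself, so the ratios set unlike windows side by side.

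A ratio of at least 2 was found in all 4 regions of each comparison, while of all shared regions 23.0% passed it against HCT116, 44.9% against HT29 and 77.5% against COLO205. Against COLO205 the count alone therefore says little. A ratio as high as the lowest one of PVT1 was reached by 39 of the regions shared with HCT116, 41 of those with HT29 and 8 of those with COLO205, the PVT1 regions included. With lines scaled to the median of their shared regions in place of depth, the medians were 33.8 against HCT116, 16.6 against HT29 and 60.9 against COLO205.

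The counting error of these ratios is wide, because the other lines had few fragments. At the first peak of the main pair, COLO320DM over HCT116 was 49.7 (exact 95% interval 13.4 to 416), over HT29 27.5 (11.4 to 86.5) and over COLO205 119.95 (32.4 to 1004). IP reads per M were 97.1 in COLO320DM against 21.0 in HCT116, 18.8 in HT29 and 11.0 in COLO205. The ratios were 4.62 over HCT116 (3.08 to 7.14), 5.16 over HT29 (3.61 to 7.52) and 8.79 over COLO205 (5.98 to 13.3). The COLO320DM summit held 143 of the 146 reads that its list allows at a summit. These read ratios may therefore be too low, and their intervals do not cover that limit. The limit holds for input fragments too, of which this summit had 101, so the input ratios may also be too low. By how much was not tested, and the read ratios are not set against the input ratios. At the first peak of the pair nearer to the start, IP reads per M in COLO320DM were 16.5 times those of HCT116 (7.36 to 46.1), 13.9 times those of HT29 (7.46 to 28.7) and 43.0 times those of COLO205 (17.9 to 135). In such bulk RNA, more cells with a transcript, more RNA per cell and more gene copies cannot be told apart.

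The fold was lower in COLO320DM than in HCT116 in 3 of the 4 shared PVT1 regions (53.7% of all shared regions), lower than in HT29 in 3 of 4 (45.2%) and lower than in COLO205 in 4 of 4 (65.8%). The median ratio of folds in these regions was 0.420 against HCT116, 0.427 against HT29 and 0.285 against COLO205, while over all shared regions it was 0.968, 1.05 and 0.831. At both pairs COLO320DM had backgrounds of 65.3, 50.4, 40.7 and 23.3, and its summits hold at most 146 reads. Its fold could therefore not reach the higher folds of the other lines, except at 128824383 against COLO205. These counts and ratios were thus largely fixed in advance. Without the 1 that the fold adds to reads and background, COLO320DM was lower in the remaining region too, against HCT116 and against HT29.

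**Figure D3:**
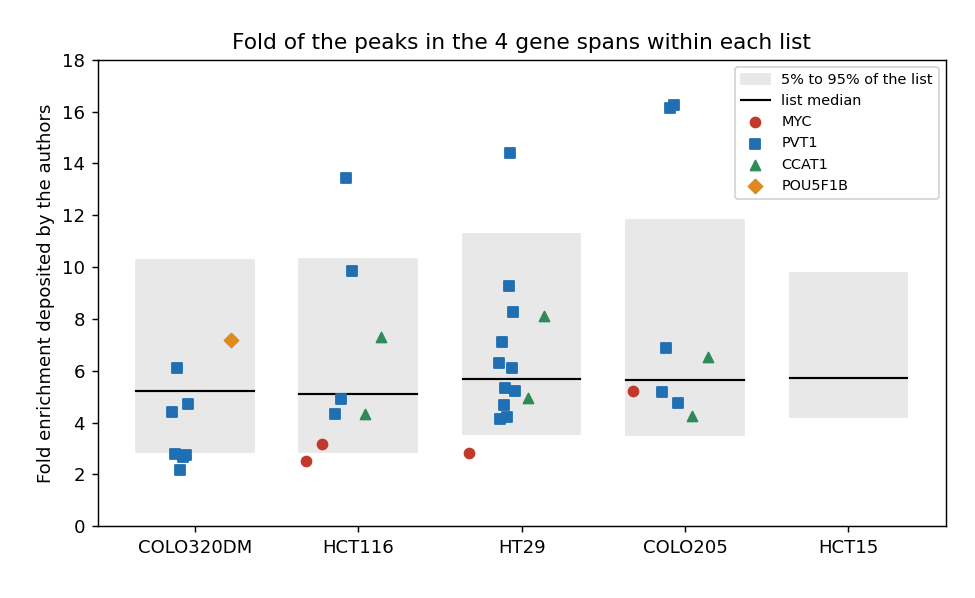
The authors' fold of every peak in the 4 gene spans by line, on a linear axis from 0, over the 5% to 95% range (grey) and the median (line) of the whole list. Above the grey range lie 2 PVT1 peaks in COLO205 and 1 each in HCT116 and HT29, and below it lie 4 PVT1 peaks of COLO320DM and 1 MYC peak each of HCT116 and HT29.

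A limit on reads bears on the high COLO320DM values. No summit of any of the 4 lists had more reads or input fragments than a fixed number, 146 in COLO320DM and 150 in HCT116, HT29 and COLO205, which is 2 times the shortest peak of the list (73 and 75 nt). Such a limit follows when only 1 read per position and strand is kept. It was reached exactly by 7 COLO320DM, 8 HCT116 and 4 COLO205 peaks, all on 1 unplaced contig that carries ribosomal DNA. The 143 and 136 reads of the PVT1 pair in COLO320DM were close to it, at 97.9% for the higher. With its background there, COLO320DM could not reach the folds of the other lines at this pair within the limit. How much the limit changed the low folds and the read and input ratios there was not tested. In the other lines the peaks of the 4 genes had at most 51 reads in HCT116, 48 in HT29 and 33 in COLO205, at most 34% of the limit.

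Around the 4 genes, the rest of the window from 126 to 130.5 Mb held 39 COLO320DM peaks, 15 HCT116 peaks, 41 HT29 peaks and 9 COLO205 peaks. COLO320DM peaks there mostly lay over input, with at least 1 fragment under 79.5% of them. In HT29 this was so for 19.5%, in HCT116 for 46.7% and in COLO205 for 33.3%. The lists as a whole differed too, with 61.8% in COLO320DM, 39.0% in HT29, 58.1% in HCT116 and 51.8% in COLO205. The HT29 peaks had a median of 5 IP reads and those of COLO320DM a median of 13. Peaks in the 4 spans had more local input than the rest of the window in each line, with medians of 34.4 against 2 fragments in COLO320DM, 2 against 0.450 in HCT116, 1.325 against 0.195 in HT29 and 1.49 against 0.600 in COLO205. In COLO205 this rested on the MYC and CCAT1 peaks, as its 5 PVT1 peaks had a lower median, 0.4725.

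In COLO320DM, 42 of the 47 window peaks lay between 127 and 129 Mb, bounds set after the positions were seen. Where the local input there was known to come from a 10 kb window, it held 51 to 1601 fragments (7 peaks). Not all of the stretch had such input. The peak at 127085850, whose window could be 1 kb or 10 kb, had at most 10 fragments over 10 kb. The last COLO320DM peak, at 129113304, had 13 fragments over 10 kb. In HT29, 42 of 55 window peaks lay between the same bounds, with 13 to 84 fragments over 10 kb (18 peaks).

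Outside the spans, 4 regions were held by all 4 longer lists. At 127568668 to 127568873 COLO320DM had 107 reads over 89 input fragments and a fold of 1.84, against a fold of 5.20 in HCT116, 2.98 in HT29 and 4.75 in COLO205. Its local input per M was 21.9 times that of HCT116, 5.05 times that of HT29 and 21.1 times that of COLO205. At 126445666 to 126445778, with 1 input fragment in COLO320DM, the ratio was 0.0410 over HCT116, 0.0907 over HT29 and 1.19 over COLO205. At 126448284 to 126448929, with 3 fragments in COLO320DM, it was 0.109 over HCT116, 0.292 over HT29 and 2.38 over COLO205. The exact intervals of these ratios lay below 1 over HCT116 at both regions, and over HT29 at 126445666. They included 1 over HT29 at 126448284 (0.0537 to 1.05). Over COLO205 they included 1 at both regions (0.0201 to 22.8 and 0.318 to 17.7). So few fragments cannot place COLO320DM above or below COLO205 there. At 126011485 to 126011677 the ratio was 1.29 over HCT116, 0.8801 over HT29 and 17.9 over COLO205.

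The highest folds outside the spans were at positions that differed between lines. COLO320DM had 11.8 at 127471670 to 127472014 and 11.0 at 127512926 to 127513058. HCT116 had 13.3 at 127002226 to 127002515 and 6.86 at 126966655 to 126966743. HT29 had 8.09 at 127444182 to 127444412 and 7.94 at 128413687 to 128413776, both on 8 reads. COLO205 had 6.76 at 126011485 to 126011677 and 6.01 at 128217443 to 128217609.

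**Figure D4:**
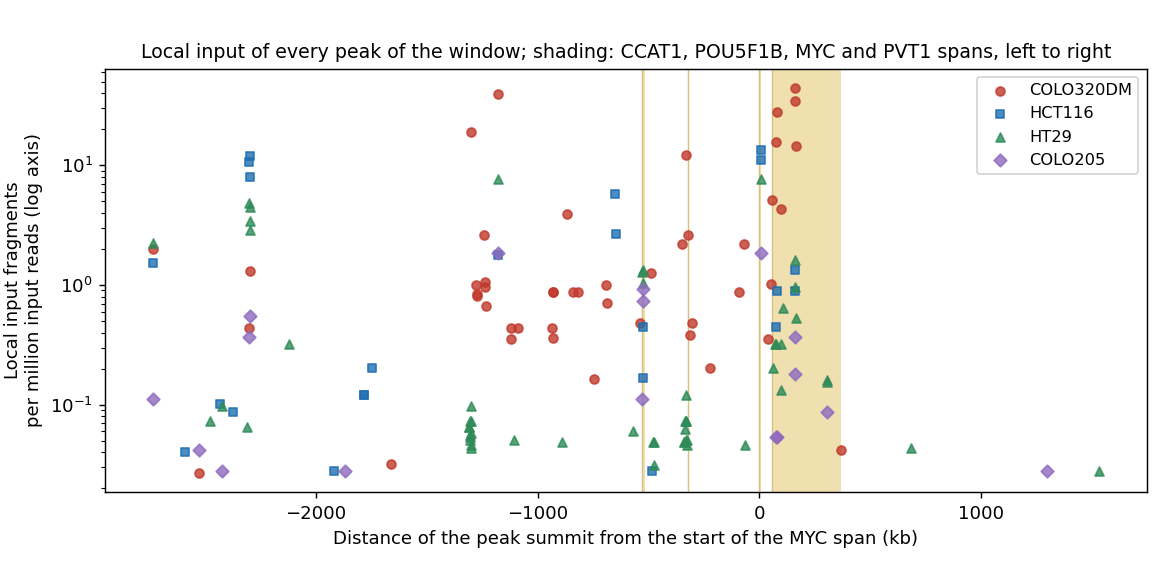
Local input fragments per M input reads (log axis) under every peak of the window, by distance of the summit from the start of the MYC span (kb), with the gene spans shaded. COLO320DM reaches 44.3 in PVT1 and stands at 0.0417 at the last peak, near the PVT1 end. HCT116, HT29 and COLO205 are highest in MYC among the shaded spans, at 13.4, 7.74 and 1.85.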

How the data were processed

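The 5 m6A peak lists were used, 1 for each IP library. Read trimming, alignment and peak calling rest on tools that appear in the submitters' processing notes as MACS2, BWA, cutadapt and FastQC, with hg19 as the build. Settings and the control given to the caller are not given in the sources used here. Per peak, the authors' deposited lists give a fold enrichment (a ratio to local background), a −log10 p, a −log10 q and a score, which was 10 times the −log10 q without decimals in all peaks but 1.

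For each peak of the 4 longer lists, the whole number of reads k and the background b were found that meet fold = (k + 1) / (b + 1) and the Poisson −log10 p within 0.001. All peaks had a solution, and no peak in the 4 gene spans had 2. The unit of the background gave 1 input fragment. Depth took the lowest background of a list as its genome mean, and assumed a genome of 2.7 Gb and the shortest peak, 73 or 75 nt, as fragment length. The control was taken to be the input. Reads of HCT15 were not recovered. The code was tested on simulated data.

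Peaks sharing at least 1 nt were merged into regions on chromosomes 1 to 22, X and Y. In a region with several peaks of a line, the one with the highest −log10 p was used. Every MYC, CCAT1 and POU5F1B peak was to be named, with the 3 highest PVT1 folds of a list, PVT1 regions in at least 3 lists, and outside the spans the 2 highest folds of a list and regions in the 4 longer lists. Other named PVT1 peaks were chosen after their values were seen. Members and lists were chosen with earlier results of these data known. The MYC network, neighbouring genes and epithelial markers were not analysed here. Sequence is not printed. Calculations ran in Python 3.11.15 with scipy 1.17.1, pandas 2.3.3 and numpy 2.4.6, and figures were drawn with matplotlib 3.10.9.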

Additional observations from a re-analysis of the deposited data

How the results depend on the processing

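Numbers of peaks in the 4 spans changed with the threshold. At a −log10 q of at least 5 there were 4 in HCT116, 9 in HT29 and 5 in COLO205, and 7 in COLO320DM. A fold of at least 4 left 4 in COLO320DM, against 6, 13 and 8 in HCT116, HT29 and COLO205, and 0 MYC peaks in HCT116 and HT29. The 917 strongest peaks of each list left 5 in COLO320DM and 2 in each of HCT116, HT29 and COLO205. At least 5 IP reads, overlap in place of the summit, and spans widened by 5 kb kept these numbers within 1.5 times, and HCT15 had 0 throughout. Of 120 numbers for single genes, 101 stayed within that range. Regions in all longer lists numbered 3, and 6 without the COLO320DM list. The median local input relative to the list on chromosomes 1 to 22, X and Y, restricted to a −log10 q of at least 5, was 18 in COLO320DM, 1.25 in HCT116, 10.0 in HT29 and 2 in COLO205, and relative to the rest of the window it was 17.2, 4.44, 6.79 and 2.48. The ratio of COLO320DM to HCT116, HT29 and COLO205 scaled to shared regions was 33.8, 16.6 and 60.9. A pseudocount of 0 could not be fitted: it met the −log10 p of 12 to 47 peaks a list. Few input fragments in HCT116, HT29 and COLO205 limit every ratio. No paired analysis was possible because each line has 1 peak list, made from 1 IP and 1 input library, and no result comes from a test.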

Other observations

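HT29 held many peaks with little input in parts of the window, and its list as a whole had little input too. Of its window peaks, 11 lay between 127 and 127.5 Mb with a median local input of 0.0581 fragments per M and 0 peaks over at least 1 fragment. Between 128 and 128.5 Mb it had 17, its CCAT1 peaks included, with a median of 0.0605. COLO320DM had 5 and 10 peaks in these stretches, with medians of 0.833 and 0.849 fragments per M. HCT116 had 1 and 5, and COLO205 had 0 and 3.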
